A study of Homo sapiens with 60 samples.

Results

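In HB4a, a cell line from normal breast epithelium, RNA levels in cells given rapamycin together with doxorubicin were compared with those in cells given doxorubicin alone. The arrays were chosen by their titles and treatment labels, 5 a side, and make up 10 of the 60 arrays of the series. Both groups received doxorubicin at 30 nM, and the combined group also received rapamycin at 20 nM, so the difference between them is what rapamycin added. The other HB4a groups received the DMSO vehicle or rapamycin alone at 20 nM. Their arrays entered the expression filter and the fitted spread, and their values are given only where named. The same comparison was available in C5.2, which are HB4a cells transfected with a HER-2 cDNA, and in SKBR3, a mammary adenocarcinoma line with HER-2 overexpression. All HB4a cells grew in serum-containing medium with added insulin and hydrocortisone, and the labels give no treatment time. The labels describe independent experiments, numbered 1, 2, 3, 4 and 6 in each group, and per-array values below follow that order. The number of arrays limits the precision.

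Rapamycin, bound to the protein made by FKBP1A, inhibits the kinase complex mTORC1, which growth factors and amino acids activate. Active mTORC1 promotes protein synthesis, glycolysis and lipid synthesis, and it also restrains insulin and growth factor signalling through negative feedback on adaptor proteins such as IRS1 and IRS2. Doxorubicin, an anthracycline, locks topoisomerase II onto cleaved DNA, and the breaks activate p53, whose targets include CDKN1A, MDM2 and GDF15. When PI3K and AKT are little active, FOXO transcription factors enter the nucleus and raise genes such as IRS2, INSR, CCNG2 and TXNIP.

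The labelled epithelial identity was checked against markers. All 6 epithelial markers (EPCAM, CDH1, KRT7, KRT8, KRT18 and KRT19) had means above log2 5 over the 10 arrays. Of the basal markers, KRT5, KRT15 and CDH3 were above 5 and KRT14 was near the bottom of the scale, at 0.70 with both drugs and 0.72 with doxorubicin. Of the 6 fibroblast markers only DCN was above 5 (6.53 and 6.72), and no marker of leukocytes, endothelium or adipocytes was. Of these markers of other cell types DCN alone passed the filter (log2 above 5 on at least 5 arrays) and could be tested, and it was not called. ERBB2 was at most 7.21 on any HB4a array, against at least 11.63 in C5.2 and 10.85 in SKBR3. The arrays numbered 1 stood apart from the others of their group in all 4 HB4a groups, along the first component of the residuals, which held 59.1% of their variance. A fit without these 4 arrays was added after seeing the data, and another left out rapamycin array 4 as well, which earlier work on these data had found to stand apart (called the fit without the 5 arrays). Their counts stand beside the list counts that they move.

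Adding rapamycin to doxorubicin changed 159 of 6167 genes tested (2.58%), with 71 higher (1.15%) and 88 lower (1.43%) at an adjusted p under 0.05 (limma, Benjamini-Hochberg). The largest rises were in CCN2, a secreted matrix protein that is a classical YAP target, and EGR1, an immediate-early transcription factor. The largest falls were in DDIT4, an inhibitor of mTORC1, AQP3, a water and glycerol channel, and the keratin KRT15. Most changes were small: sizes ran from 0.17 to 2.02 on the log2 scale, and 22 genes changed by at least 2-fold. The 5 against 5 arrays did not overlap for 138 of the 159 genes (86.8%), while 263 of all 6167 genes (4.26%) had arrays that did not overlap. The median over all genes was -0.03, and 924 genes (15.0%) had an unadjusted p under 0.05. Leaving out the 4 arrays numbered 1 gave 220 genes, and leaving out the 5 arrays gave 246. With the experiment number as a block 973 genes were called, but the numbers were not taken as pairs, for reasons given at the end. Leaving out 1 of the 10 arrays gave between 96 and 167, with 96 without combined array 4 and 99 without doxorubicin array 4. Cells were measured in bulk, so fewer cells of a kind and less RNA per cell cannot be told apart.

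**Figure D1:**
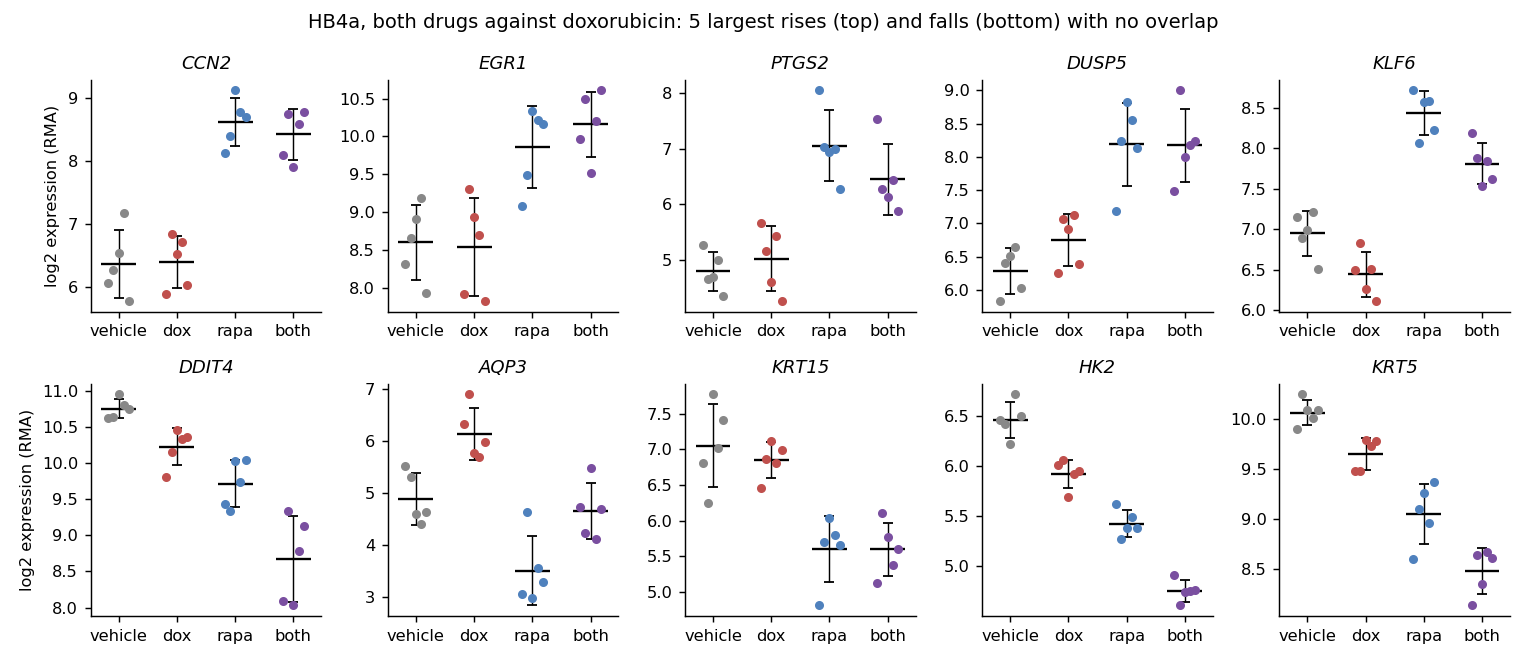
Each panel plots log2 expression (RMA) of 1 gene in HB4a under vehicle, doxorubicin, rapamycin and both drugs, with 5 arrays a group as points, the mean as a line and the SD as a bar. The panels hold the 5 largest rises (top) and falls (bottom) among called genes whose arrays did not overlap. The lack of overlap was thus a condition of the choice. CCN2, for example, is at 7.90 to 8.78 with both drugs and 5.89 to 6.84 with doxorubicin.

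Immediate-early genes, which growth factor signalling switches on within minutes, rose in part with both drugs. Of 13 tested, 5 rose (EGR1, KLF6, MAFF, MYC and KLF10), none fell, and their median difference was 0.53. EGR1, a zinc-finger transcription factor, measured 9.97, 10.49, 9.52, 10.20 and 10.61 with both drugs and 7.92, 9.31, 8.93, 8.70 and 7.82 with doxorubicin. The lowest combined array lay above the highest doxorubicin array, and the difference was 1.62 ± 0.30 (SE, 5 arrays a group, adjusted p 0.00389). KLF6, a Krüppel-like factor, measured 8.19, 7.88, 7.53, 7.84 and 7.62 against 6.50, 6.83, 6.26, 6.51 and 6.11, a rise of 1.37 ± 0.16 (adjusted p 4.69e-05). All 5 combined arrays were higher than all 5 doxorubicin arrays. MAFF, a small MAF protein, rose by 1.13 ± 0.14 from 8.12 ± 0.20 (SD) to 9.25 ± 0.19. MYC, the growth-promoting transcription factor, rose by 0.66 ± 0.14, and KLF10 by 0.53 ± 0.12. Among the 8 members that did not pass, ATF3 differed by 0.94 ± 0.27 (adjusted p 0.0654), IER2 by 0.68 ± 0.20 and FOS by 0.26 ± 0.54. The count was 6 without the 4 arrays numbered 1, 7 without the 5 arrays and 5 or 6 with any of the 10 arrays left out.

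The window just upstream of EGR1 is shown because CArG boxes, the elements bound by serum response factor, lie there. It is the RefSeq sequence of GRCh38.p14 at chr5:138465229-138465478, plus strand, the 250 bases before the first listed start, and the capitals mark 2 CArG boxes, 105 and 83 bases before that start.
EGR1 promoter: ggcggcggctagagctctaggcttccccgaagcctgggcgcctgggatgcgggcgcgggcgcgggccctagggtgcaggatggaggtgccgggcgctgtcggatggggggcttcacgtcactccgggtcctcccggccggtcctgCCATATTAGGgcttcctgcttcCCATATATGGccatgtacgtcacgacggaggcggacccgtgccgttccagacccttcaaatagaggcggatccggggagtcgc
On either strand, a CArG box occurred in 1.16% of 35116 such windows, in 0.984% of the windows of 5182 tested genes that could be matched, in 3 of the 59 matched genes that rose (5.08%) and in 3 of the 67 that fell (4.48%). A match is a description of the letters and says nothing of binding in these cells.

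Feedback inhibitors of ERK and receptor signalling rose in part. Of 11 tested, DUSP5 and ERRFI1 rose and none fell, with a median of 0.30. DUSP5, a nuclear phosphatase that inactivates ERK, measured 7.48, 9.0, 7.99, 8.17 and 8.24 with both drugs and 6.26, 7.06, 6.92, 7.12 and 6.39 with doxorubicin, a difference of 1.43 ± 0.28 (adjusted p 0.00584). The groups did not overlap, and combined array 2 was the highest. ERRFI1, which binds and inhibits EGFR family receptors, rose by 0.98 ± 0.13 (adjusted p 1.06e-04), from 6.62 ± 0.15 to 7.60 ± 0.24 (SD). DUSP6 differed by 0.97 ± 0.30 (adjusted p 0.0965) and DUSP4 by 0.74 ± 0.21 (adjusted p 0.0697), and neither passed. Without the 4 or the 5 arrays 3 members rose, and without doxorubicin array 2, 4 did. EGFR itself differed by 0.30 ± 0.12 (adjusted p 0.218), and passed only with the experiment number as a block (adjusted p 0.0426). ERBB2 differed by -0.14 ± 0.18 (adjusted p 0.771). NRG1, a ligand of the ERBB receptors, fell by 0.76 ± 0.17, from 5.47 ± 0.24 to 4.71 ± 0.21, and missed the threshold without doxorubicin array 4 (adjusted p 0.0561).

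Among 16 YAP targets tested, CCN2 and CCN1 rose, none fell, and the median was 0.28. CCN2 measured 8.09, 8.75, 7.90, 8.59 and 8.78 with both drugs and 5.89, 6.84, 6.52, 6.71 and 6.04 with doxorubicin. Every combined array was higher than every doxorubicin array, and the difference, 2.02 ± 0.25, was 4.07-fold (adjusted p 6.59e-05). CCN1, a related matrix protein, rose by 0.77 ± 0.13, from 10.30 ± 0.28 to 11.07 ± 0.07. GADD45B (0.59 ± 0.22), TEAD1 (0.50 ± 0.36) and YAP1 (0.29 ± 0.35) did not pass. Without the 5 arrays 4 members rose, and without the 4 arrays numbered 1 the count was again 2. Matrix genes of the epithelial-mesenchymal list rose in part: FN1, which encodes fibronectin, by 0.57 ± 0.11, and THBS1, which encodes thrombospondin, by 0.79 ± 0.15, out of 14 tested with a median of 0.03. The call for FN1 was absent from a fit of all 60 arrays. None of 18 collagen, collagen enzyme and matrix protease genes and none of 15 smooth muscle contractile genes was called, with medians of -0.16 and 0.16. In the first of these lists 1 gene fell without the 4 or the 5 arrays, without combined array 6 or doxorubicin array 1 or 3, and after centring the arrays or quantile normalization.

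Inflammatory targets of NF-kB rose in 3 of 11 tested, with a median of 0.29. PTGS2, the inducible cyclooxygenase, measured 7.53, 6.27, 6.12, 6.43 and 5.87 with both drugs and 5.66, 5.15, 4.6, 5.42 and 4.25 with doxorubicin, a rise of 1.43 ± 0.32 (adjusted p 0.0149). Combined array 1 was the highest, and the groups did not overlap. TNFAIP3, a feedback inhibitor of NF-kB, measured 7.17, 6.77, 7.42, 6.81 and 6.07 against 5.56, 6.36, 5.19, 5.42 and 4.46, a rise of 1.45 ± 0.33 (adjusted p 0.017). The lowest combined array lay below the highest doxorubicin array. IL6, which encodes interleukin-6, rose by 1.34 ± 0.35 (adjusted p 0.0384), also with overlap. NFKBIA, which encodes the inhibitor of NF-kB, differed by 0.34 ± 0.12 and ICAM1 by 0.17 ± 0.17, and neither passed. The count was 1 without the 4 arrays numbered 1 (TNFAIP3 at an adjusted p of 0.0509), 2 without the 5 arrays, and 1 without doxorubicin array 6 (TNFAIP3 at 0.0565).

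Several rises lay outside these groups. EDN1, which encodes the peptide endothelin-1, rose by 1.26 ± 0.17 by its brightest probe set, from 4.86 ± 0.38 to 6.12 ± 0.18, although another of its probe sets that passed the filter differed by -0.17 and the mean of its probe sets rose by 0.68. RGCC, a regulator of the cell cycle, rose by 1.18 ± 0.22 from 3.76 ± 0.37 to 4.94 ± 0.38. It passed the filter only with the arrays of rapamycin alone (6.46 ± 0.39, SD) and was not tested in a fit of only the 10 arrays. The antisense transcript EPB41L4A-AS1 rose by 1.08 ± 0.14 and UBALD2 by 1.06 ± 0.13. None of the 4 overlapped between the groups, which was a condition for naming them.

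Among genes that FOXO factors raise and genes of the insulin receptor pathway, some were higher with both drugs. Of 16 FOXO factors and targets tested, IRS2, INSR, CCNG2, TRIB1 and TXNIP rose, none fell, and the median was 0.32. IRS2, an adaptor of the insulin and IGF-1 receptors, measured 8.35, 8.03, 8.03, 8.34 and 8.09 with both drugs and 7.11, 7.35, 7.10, 7.15 and 7.40 with doxorubicin, a rise of 0.94 ± 0.11 (adjusted p 3.71e-05). Its lowest combined array was 8.03 and its highest doxorubicin array 7.40. CCNG2, a cyclin associated with growth arrest, rose by 0.94 ± 0.23, TRIB1, a pseudokinase, by 0.95 ± 0.22, INSR, the insulin receptor, by 0.53 ± 0.14, and TXNIP, which lowers glucose uptake and binds thioredoxin, by 0.51 ± 0.14 (adjusted p 0.049). The factors themselves differed by 0.16 ± 0.20 (FOXO1) and 0.20 ± 0.21 (FOXO3), CDKN1B by 0.44 ± 0.18 and BNIP3 by -0.44 ± 0.23, and none of these passed. Of 7 tested genes of the insulin receptor, IRS and PI3K list, INSR and IRS2 rose. The count was 1 of 6 without the 4 or the 5 arrays. IGF1R differed by 0.66 ± 0.27 (adjusted p 0.226) and IRS1 by 0.21 ± 0.16.

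Apart from that of IRS2, these calls rested on few arrays. Without 1 array the FOXO count fell to between 1 and 4. It was 1 without doxorubicin array 3 or 4 and 2 without combined array 1, and CCNG2 lost its call in each of those fits. The count was 3 without the 4 arrays numbered 1 and 4 without the 5 arrays. TXNIP kept its call only without combined array 3 or 4, among the 10 arrays left out in turn, with a difference of 0.41 to 0.57. INSR lost it without array 1, 3 or 4 of either group (0.46 to 0.60 over all 10), and TRIB1 without doxorubicin array 3, 4 or 6 or combined array 2 (0.82 to 1.15). IRS2 kept its call in every setting tried in which it was tested.

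The window before TXNIP is shown because it holds GTAAACA, the core letters of the forkhead element that FOXO proteins bind. It is the RefSeq sequence of GRCh38.p14 at chr1:145996580-145996829, minus strand, with the match in capitals 124 bases before the first listed start.
TXNIP promoter: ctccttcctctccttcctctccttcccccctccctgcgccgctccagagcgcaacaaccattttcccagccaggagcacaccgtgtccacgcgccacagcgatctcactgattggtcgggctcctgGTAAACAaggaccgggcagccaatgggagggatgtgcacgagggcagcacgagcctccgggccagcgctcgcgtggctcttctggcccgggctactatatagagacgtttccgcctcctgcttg
GTAAACA was found, on either strand, in 2.98% of the 35116 windows, in 1.6% of the matched windows of tested genes, in 2 of 59 genes that rose (3.39%) and in none of 67 that fell.

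Glycolysis was the list with the most falls. Of 21 genes tested, 9 fell, none rose, and the median was -0.38, against -0.03 over all genes. HK2, the hexokinase that phosphorylates glucose in the first step, measured 4.91, 4.61, 4.74, 4.75 and 4.76 with both drugs and 6.01, 6.06, 5.69, 5.92 and 5.95 with doxorubicin. The groups did not overlap, and the fall of 1.17 ± 0.11 had the lowest adjusted p of all genes (3.85e-06). That is the value of its brightest probe set: neither of the others passed the filter, and with the mean of all 3 HK2 fell by 0.43 (adjusted p 0.0454). PFKFB4, a regulator of phosphofructokinase, fell by 0.90 ± 0.20 from 5.98 ± 0.35 to 5.08 ± 0.28. The falls of the downstream enzymes were smaller: ENO1 fell by 0.50 ± 0.09, PGAM1 by 0.48 ± 0.10, GPI by 0.46 ± 0.10, LDHA by 0.46 ± 0.07, TPI1 by 0.38 ± 0.07, ALDOA by 0.33 ± 0.09 and PGK1 by 0.28 ± 0.05. Of the 12 that did not pass, ALDOC differed by -0.92 ± 0.27 (adjusted p 0.0699), PKM by -0.57 ± 0.17 and the glucose transporter SLC2A1 by -0.38 ± 0.12, while LDHB was the only member with a positive difference (0.04 ± 0.31). The count was 10 without the 4 or the 5 arrays, 7 to 10 with any of the 10 arrays left out, and 7 and 9 after centring the arrays or quantile normalization. Hypoxia targets outside glycolysis fell in 2 of 18 (CA12 and STC2, median -0.13). None did without combined array 1 or 4 or doxorubicin array 2, and 1 did without any other array except combined array 3 and doxorubicin array 1. Without doxorubicin array 3 or combined array 6 that 1 was neither CA12 nor STC2. CA12, a carbonic anhydrase, fell by 0.43 ± 0.11 and lost its call without doxorubicin array 2, 3 or 6 or combined array 1, 4 or 6. None of 8 pentose phosphate genes was called.

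DDIT4, which encodes an inhibitor of mTORC1 induced by hypoxia, glucocorticoids and stress, was the largest fall. It measured 8.09, 9.33, 8.03, 8.78 and 9.13 with both drugs and 9.81, 10.16, 10.46, 10.33 and 10.36 with doxorubicin. All combined arrays were lower than all doxorubicin arrays, with a wider spread among the combined arrays, and the gene fell by 1.55 ± 0.21 (adjusted p 1.06e-04), a 2.94-fold change. It was the only member called of 15 tested mTORC1 and mTORC2 components and regulators, whose median was -0.08. Without doxorubicin array 1, and without the 4 or the 5 arrays, another member also fell. FKBP1A, whose product binds rapamycin, differed by -0.07 ± 0.20 and RHEB, the activator of mTORC1, by 0.19 ± 0.10. MTOR (4.18 with both drugs and 4.16 with doxorubicin), RPTOR (3.95 and 4.02) and RICTOR (2.28 and 1.20) lay below the filter and were not tested.

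The windows before HK2 and DDIT4 are shown because both hold ACGTG, the core shared by hypoxia response elements and E-box-like elements. They are RefSeq sequences of GRCh38.p14, the 250 bases before the first listed start, with ACGTG or its reverse complement in capitals. HK2 (chr2:74833877-74834126, plus strand) holds it on the reverse strand 229 and 48 bases before the start, and DDIT4 (chr10:72273674-72273923, plus strand) on the strand shown, 125 bases before the start.
HK2 promoter: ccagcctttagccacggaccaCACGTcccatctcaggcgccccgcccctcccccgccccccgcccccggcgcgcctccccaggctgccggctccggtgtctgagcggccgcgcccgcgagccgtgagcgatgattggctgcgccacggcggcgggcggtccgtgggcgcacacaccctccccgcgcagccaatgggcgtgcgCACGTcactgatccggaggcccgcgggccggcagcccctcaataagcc
DDIT4 promoter: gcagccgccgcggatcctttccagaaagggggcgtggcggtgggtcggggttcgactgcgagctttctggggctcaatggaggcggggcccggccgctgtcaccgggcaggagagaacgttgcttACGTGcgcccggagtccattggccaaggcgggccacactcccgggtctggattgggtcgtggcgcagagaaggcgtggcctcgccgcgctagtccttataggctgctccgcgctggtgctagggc
ACGTG occurred on either strand in 18.5% of the 35116 windows, in 24.5% of the matched windows of tested genes, in 21 of the 67 genes that fell (31.3%) and in 19 of the 59 that rose (32.2%), so it was about as frequent in both directions. It overlaps the E-box CACGTG, which was found in 6.34% of all windows and in 9.49% of the matched windows of tested genes. That E-box was in 4 of the 67 genes that fell (5.97%) and in 6 of the 59 that rose (10.2%).

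Some genes of lipid and amino acid synthesis fell, where 1.43% of all genes did. SCD, the desaturase that makes monounsaturated fatty acids, fell by 0.83 ± 0.19, from 6.66 ± 0.33 to 5.83 ± 0.35, and FASN, the fatty acid synthase, by 0.57 ± 0.15 (adjusted p 0.048), out of 9 fatty acid synthesis genes with a median of -0.19. All 13 tested genes of cholesterol synthesis and uptake had negative differences, from -0.55 ± 0.19 (DHCR7) to -0.09 ± 0.12 (MVK), with a median of -0.31, but none passed, and 1 did without the 5 arrays. FASN lost its call without any 1 of the 10 arrays (-0.61 to -0.51) and without the 4 or the 5 arrays, and SCD without doxorubicin array 2, 3 or 6 or combined array 1 (-0.96 to -0.70).

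ATF4, a transcription factor, raises amino acid synthesis and transport genes when amino acids are short or mTORC1 is active. Of 20 ATF4 targets tested, ASNS, PSAT1 and STC2 fell and none rose, with a median of -0.38. ASNS, which makes asparagine, fell by 0.54 ± 0.14, PSAT1, of serine synthesis, by 0.54 ± 0.13, and STC2, a secreted glycoprotein, by 0.53 ± 0.13. STC2 was at 4.63 with doxorubicin and 4.09 with both drugs, and passed the filter only with the vehicle and rapamycin-alone arrays. SLC3A2 (-0.56 ± 0.16, adjusted p 0.0641), SHMT2 (-0.46 ± 0.13) and SLC7A5 (-0.47 ± 0.16) did not pass, and ATF4 itself differed by 0.00 ± 0.09. The count ran from 0 (without combined array 2 or doxorubicin array 2) to 6 (without doxorubicin array 1), it was 1 without combined array 1 or 4 or doxorubicin array 6, and 7 without the 4 or the 5 arrays. ASNS was lost without doxorubicin array 2 or 6 or combined array 1, 2 or 4. PSAT1 was lost without doxorubicin array 2 or 6 or combined array 2, and STC2 without doxorubicin array 2, 3 or 4 or combined array 1, 2, 4 or 6. VARS1, the valyl-tRNA synthetase, was the only 1 of 18 tRNA synthetases called (-0.69 ± 0.17, list median -0.26), and its call was lost without doxorubicin array 2, 3 or 4 or combined array 1, 2 or 4, and with the mean of its probe sets (-0.4, adjusted p 0.115). Without the 4 or the 5 arrays 2 tRNA synthetases fell.

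Of the genes for making and running ribosomes, few were called, as over all genes (2.58%). NOP16, a nucleolar protein of ribosome assembly, fell by 0.62 ± 0.11 (adjusted p 0.00242), from 7.75 ± 0.18 to 7.13 ± 0.08, and was the only 1 of 34 ribosome biogenesis genes called (median -0.15), while 3 fell without the 5 arrays and 2 after centring. None of 51 cytosolic ribosomal protein genes was called, and their median was 0.01. EEF2, the elongation factor that moves the ribosome, rose by 0.26 ± 0.06 as the only 1 of 13 translation factors with 5-prime oligopyrimidine tracts, whose median was 0.16. Its call was lost without doxorubicin array 1, 2, 3 or 4 or combined array 2 or 6, and after centring. Of 14 genes of the unfolded protein response tested, 2 fell: SDF2L1 by 0.52 ± 0.11 and HSPA5, the main chaperone of the endoplasmic reticulum, by 0.41 ± 0.11 (adjusted p 0.0456). HSPA5 lost its call without array 1, 2 or 6 of the doxorubicin group or 2, 3, 4 or 6 of the combined group, and after centring, and 3 members of its list fell without the 5 arrays. HSPB1, a small heat shock protein, fell by 0.59 ± 0.12. No proteasome subunit of 24 was called (median -0.14), except 1 that fell after quantile normalization. ATP5MC1, a subunit of ATP synthase, fell by 0.47 ± 0.11 as the only 1 of 36 oxidative phosphorylation genes (median -0.08) and lost its call without doxorubicin array 4 or combined array 1, 2 or 4.

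Autophagy and lysosome genes, which TFEB and FOXO factors raise when mTORC1 is inhibited, were called in 1 case. GABARAPL1, which is needed for autophagosome formation, rose by 0.71 ± 0.15, from 5.10 ± 0.29 to 5.81 ± 0.22, as the only 1 of 17 autophagy genes (median 0.06), and 2 rose without the 4 or the 5 arrays. None of 24 lysosome genes was called (median 0.01).

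**Figure D2:**
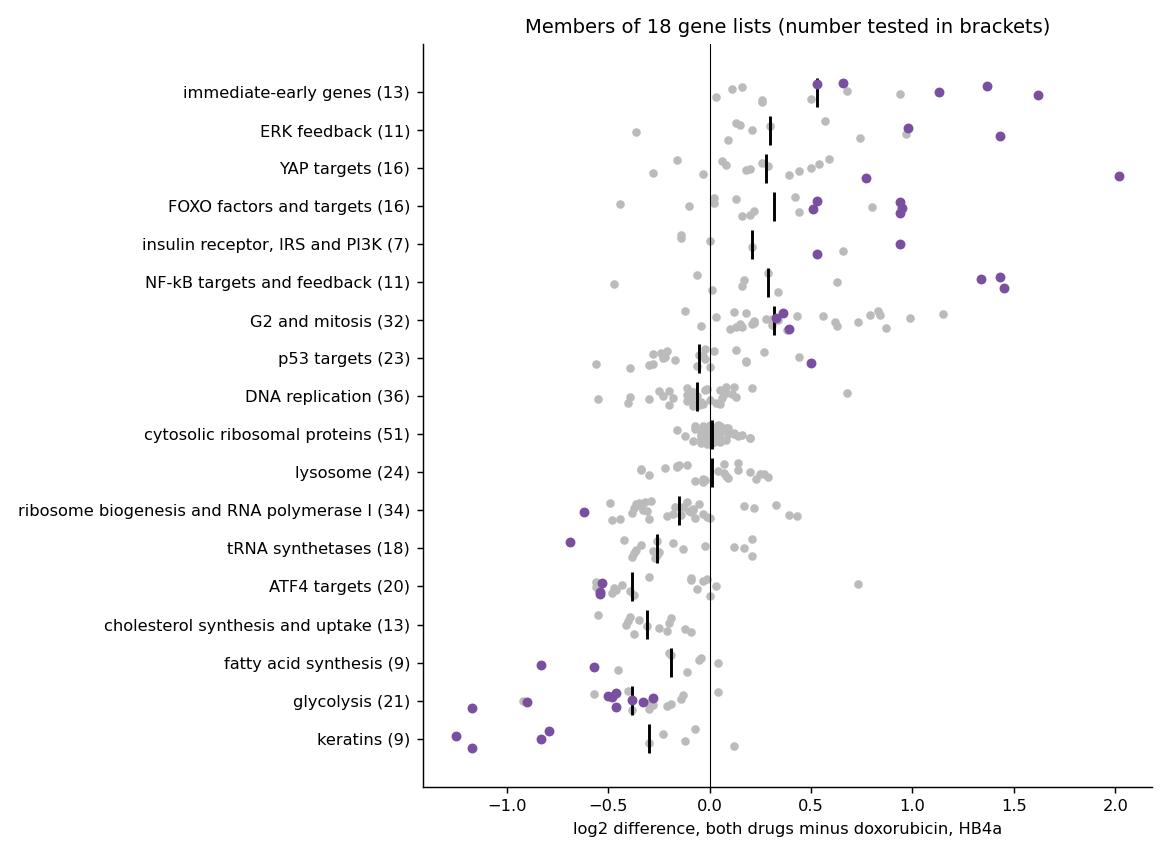
Each row is 1 of 18 gene lists with the number of members tested in brackets, and each point is the log2 difference of a member, both drugs minus doxorubicin, in HB4a, with called members and the list median marked. Glycolysis lies to the left (median -0.38, 9 of 21 lower), immediate-early genes to the right (median 0.53, 5 of 13 higher), and ribosomal proteins at 0 (median 0.01).

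Keratins, the intermediate filaments of epithelial cells, fell in part. Of 9 keratins tested, KRT5, KRT13, KRT15 and KRT19 fell, none rose, and the median was -0.30. KRT5, the basal keratin, measured 8.14, 8.64, 8.35, 8.67 and 8.61 with both drugs and 9.48, 9.48, 9.79, 9.73 and 9.78 with doxorubicin, a fall of 1.17 ± 0.13 (adjusted p 2.30e-05). The groups did not overlap. KRT15, a keratin of basal and progenitor cells, measured 5.13, 6.11, 5.77, 5.37 and 5.6 against 6.46, 6.86, 7.12, 6.81 and 6.99, a fall of 1.25 ± 0.25. KRT13 fell by 0.83 ± 0.16 and KRT19 by 0.79 ± 0.16, while KRT8 (-0.30 ± 0.13), KRT18 (-0.23 ± 0.07) and KRT7 (0.12 ± 0.08) did not pass. The 6 epithelial markers, of which KRT19 is 1, summed on the linear scale to 6140 to 6880 with both drugs and 6990 to 7770 with doxorubicin. The basal markers, led by KRT5, summed to 617 to 880 and 1170 to 1420. Their part in other changes was not tested. The count was also 4 without the 4 or the 5 arrays and was 4 or 5 with any of the 10 arrays left out.

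LY6D, a membrane protein of squamous and progenitor epithelial cells, fell by 1.12 ± 0.27, from 6.92 ± 0.42 to 5.80 ± 0.20. CRABP2, which carries retinoic acid, fell by 1.0 ± 0.18, from 5.54 ± 0.26 to 4.53 ± 0.25. ALOX15B, an arachidonate lipoxygenase, fell by 1.08 ± 0.28, TRIM16 by 1.05 ± 0.21 and CLIC3 by 0.98 ± 0.20. In all 5 the groups did not overlap, which was a condition for naming them. The call of ALOX15B was lost without doxorubicin array 2, 3, 4 or 6 or combined array 1, 2, 3 or 4 (-1.22 to -0.96), and that of LY6D without doxorubicin array 2 or 6 or combined array 2 or 4 (-1.23 to -1.02).

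Transport genes moved in both directions. AQP3 measured 4.73, 4.23, 5.49, 4.12 and 4.69 with both drugs and 6.33, 6.89, 5.77, 5.69 and 5.98 with doxorubicin, a fall of 1.48 ± 0.32 (adjusted p 0.0115). The groups did not overlap, with combined array 3 just below doxorubicin array 4. SCNN1G, the gamma subunit of the epithelial sodium channel, fell by 0.76 ± 0.16, from 4.84 ± 0.22 to 4.08 ± 0.31. It passed the filter only with the vehicle and rapamycin-alone arrays. SGK1, the kinase that keeps this channel at the membrane and that mTORC2 activates, rose by 0.89 ± 0.14, from 7.91 ± 0.16 to 8.80 ± 0.23. The other 4 tested genes of this list, among them SCNN1A (-0.24 ± 0.14), did not pass.

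Of the p53 targets, 1 was called when rapamycin was added (2.58% of all genes were), although doxorubicin alone had raised most of them. Against vehicle, doxorubicin raised 19 of 23 p53 targets tested, with a median of 1.04 (8.66% of all genes were higher in that comparison). With rapamycin added, 1 of the 23 rose (GADD45A, which slows the cell cycle and promotes repair, by 0.50 ± 0.11), none fell, and the median difference from doxorubicin alone was -0.05. Without doxorubicin array 1, and without the 4 or the 5 arrays, 1 target also fell. GDF15, a secreted stress factor, measured 9.36, 9.85, 9.56, 9.45 and 9.46 with both drugs and 9.40, 9.97, 9.57, 9.43 and 9.61 with doxorubicin, a difference of -0.06 ± 0.25. The groups overlapped over nearly their whole range. MDM2, the ubiquitin ligase of p53, differed by 0.00 ± 0.34. CDKN1A, the p21 inhibitor of cyclin-dependent kinases, measured 9.42, 9.87, 9.68, 9.74 and 9.59 against 9.97, 9.97, 10.10, 9.99 and 10.21. Its arrays did not overlap, yet the difference of -0.39 ± 0.16 did not pass (adjusted p 0.252), except in a fit of only the 10 arrays (adjusted p 0.0253). SESN2, a p53 and ATF4 target that inhibits mTORC1, differed by -0.56 ± 0.18 (adjusted p 0.0972). None of 5 cyclin-dependent kinase inhibitor genes and none of 9 double-strand break repair genes was called, though without combined array 3 one of the inhibitor genes rose. GADD45A was not called in a fit of all 60 arrays.

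Some genes of mitosis were called in HB4a, all of them higher with both drugs. Of 32 G2 and mitosis genes tested, CCNB2, PTTG1 and UBE2C rose, none fell, and the median was 0.32. Of all genes 1.15% rose. Differences were positive in 30 of the 32, against 43.6% of all genes. CCNB2, a mitotic cyclin, measured 8.79, 8.53, 8.52, 8.64 and 8.75 with both drugs and 8.17, 8.40, 8.33, 8.10 and 8.29 with doxorubicin, a rise of 0.39 ± 0.08. PTTG1, which encodes securin, rose by 0.36 ± 0.06, and UBE2C, the ubiquitin-conjugating enzyme of the anaphase-promoting complex, by 0.33 ± 0.08. TOP2A, the topoisomerase that doxorubicin traps, measured 6.99, 6.30, 4.34, 6.73 and 6.17 against 5.97, 4.63, 4.47, 5.18 and 5.34, and its difference of 0.99 ± 0.44 did not pass (adjusted p 0.278). Combined array 3 was the lowest of all 10, and without it the difference was 1.43 (adjusted p 0.0411) and 7 members of the list rose. MKI67 differed by 0.12 ± 0.27 and CDK1 by 0.87 ± 0.26 (adjusted p 0.0786). None of 36 DNA replication genes was called (median -0.06). Without the 4 or the 5 arrays 4 mitosis genes rose, and after centring 6 did. In the replication list 1 gene fell without the 5 arrays, without combined array 6 and after centring or quantile normalization, and 1 rose without combined array 3.

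The remaining lists held no called gene: interferon-stimulated genes (6 tested), basal adhesion and laminin genes (11), ABC drug efflux (3), anthracycline-reducing enzymes and NRF2 targets (9), topoisomerases (5), polyamine enzymes (8) and metallothioneins (7). In the list of anthracycline-reducing enzymes and NRF2 targets, however, 2 genes fell without the 4 or the 5 arrays, and 1 without doxorubicin array 1 or combined array 2. In the topoisomerase list TOP2A rose without combined array 3 and, in limma, with array weights (1.10, adjusted p 0.0448). It also rose with the experiment number as a block (0.99, adjusted p 0.0496), and with that block and only the 10 arrays (adjusted p 0.027). Of 7 genes of the MYC network MYC itself rose, and 2 members did without the 4 or the 5 arrays.

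The levels in all 4 HB4a groups place these differences. Comparisons that share arrays are given side by side. For MYC the means were 9.42 ± 0.16 with vehicle, 8.40 ± 0.33 with doxorubicin, 10.06 ± 0.27 with rapamycin and 9.07 ± 0.19 with both (SD, n = 5 each). Doxorubicin alone was lower than vehicle, by limma's estimate of -1.01 ± 0.14 (SE), and the combined group lay between the 2. ERRFI1 was at 7.56 ± 0.22, 6.62 ± 0.15, 8.82 ± 0.20 and 7.60 ± 0.24 in the same order of groups, and SGK1 at 8.83 ± 0.33, 7.91 ± 0.16, 9.81 ± 0.19 and 8.80 ± 0.23. For both genes the combined and vehicle means differed by less than the SD, with estimates of 0.04 ± 0.13 and -0.02 ± 0.14 (SE).

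AQP3 and LY6D went the other way, higher with doxorubicin than with vehicle. AQP3 was at 4.89 ± 0.49 with vehicle, 6.13 ± 0.49 with doxorubicin, 3.51 ± 0.67 with rapamycin and 4.65 ± 0.54 with both, and LY6D at 5.36 ± 0.64, 6.92 ± 0.42, 4.74 ± 0.50 and 5.80 ± 0.20. A further group was lower with both drugs than with either drug alone. DDIT4 was at 10.75 ± 0.13, 10.22 ± 0.26, 9.72 ± 0.33 and 8.67 ± 0.59, and HK2 at 6.46 ± 0.18, 5.92 ± 0.14, 5.43 ± 0.14 and 4.76 ± 0.11. SCNN1G (6.01 ± 0.15, 4.84 ± 0.22, 5.39 ± 0.23 and 4.08 ± 0.31) and KRT5 (10.07 ± 0.13, 9.65 ± 0.16, 9.06 ± 0.30 and 8.48 ± 0.23) were also lowest with both. Against rapamycin alone, both drugs gave -1.05 ± 0.21 for DDIT4 (adjusted p 0.00241) and -0.67 ± 0.11 for HK2. They gave -1.32 ± 0.16 for SCNN1G and -0.58 ± 0.13 for KRT5. All 4 were called, in a comparison where 3.18% of genes were called lower. SCNN1G passed the filter only with the vehicle and rapamycin-alone arrays, in which it was higher, so its call here is no independent support.

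**Figure D3:**
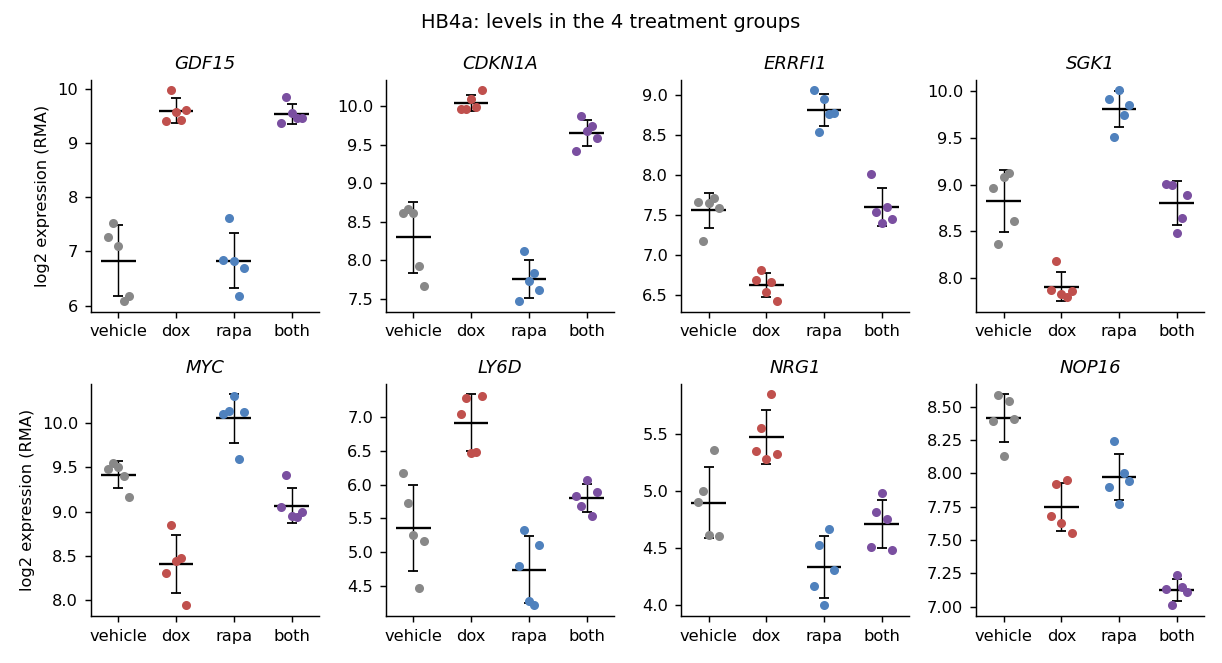
Each panel plots log2 expression (RMA) of 1 gene in the 4 HB4a groups, with 5 arrays a group as points, the mean as a line and the SD as a bar. GDF15 is at 9.60 with doxorubicin and 9.54 with both drugs, whereas MYC, ERRFI1 and SGK1 are lower with doxorubicin than in the other groups, LY6D and NRG1 are highest with doxorubicin, and NOP16 is lowest with both, at 7.13 against 7.75 with doxorubicin.

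Whether rapamycin acted differently with and without doxorubicin was tested as the interaction, the difference with doxorubicin minus that against vehicle. No gene of 6167 was called by limma, 19 (0.308%) had an unadjusted p under 0.05, and the lowest adjusted p was 1. The 19 genes were fewer than a p under 0.05 would give by chance with no interaction in any gene, and the reason was not tested. The fit had no term for the experiment number, although the arrays numbered 1 stood apart in all 4 groups. The SEs and intervals given here include that spread. Over all 6167 genes the interaction was positive in 33.8%, with a median of -0.05. Of the 159 genes, 93 had a larger change with doxorubicin and 4 had an unadjusted interaction p under 0.05 (RGCC, GADD45A, HEG1 and PLAC8, named after their values were seen), with a median SE of 0.19. The 159 were selected on the difference with doxorubicin, which is part of the interaction, so the count of 93 is no evidence of an interaction. The lack of called genes does not show that the effects were alike, since the intervals were wide: the interaction was -0.23 (95% interval -0.96 to 0.50) for CCN2, -0.14 (-0.46 to 0.19) for HK2, -0.25 (-0.57 to 0.07) for IRS2 and -0.52 (-1.12 to 0.09) for DDIT4. RGCC rose by 1.90 with rapamycin alone and by 1.18 with doxorubicin present. It passed the filter only with the arrays of rapamycin alone, where it was highest, so these values are no evidence of an interaction.

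The comparison of rapamycin with vehicle uses none of the 10 arrays, so its values can be set against these. All 159 genes had the same sign there, and 102 were also called in the same direction, 55 of the 71 rises and 47 of the 88 falls, where 2.08% and 1.10% of all genes were called higher and lower, with none called in the opposite direction. These are 64.2% of the 159 and 52% of the 196 genes called with rapamycin alone (3.18% of those tested). Over the 6167 genes the 2 sets of differences had a Pearson r of 0.88, given as a description, since genes are not independent and the groups carry the same experiment numbers. CCN2 rose by 2.25 with rapamycin alone and by 2.02 with doxorubicin present, IRS2 by 1.20 and 0.94, and HK2 differed by -1.03 and -1.17. LY6D differed by -0.62 (adjusted p 0.263) with rapamycin alone and NRG1 by -0.56 (adjusted p 0.0752), so both were called only beside doxorubicin, and the interaction did not pass for either.

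**Figure D4:**
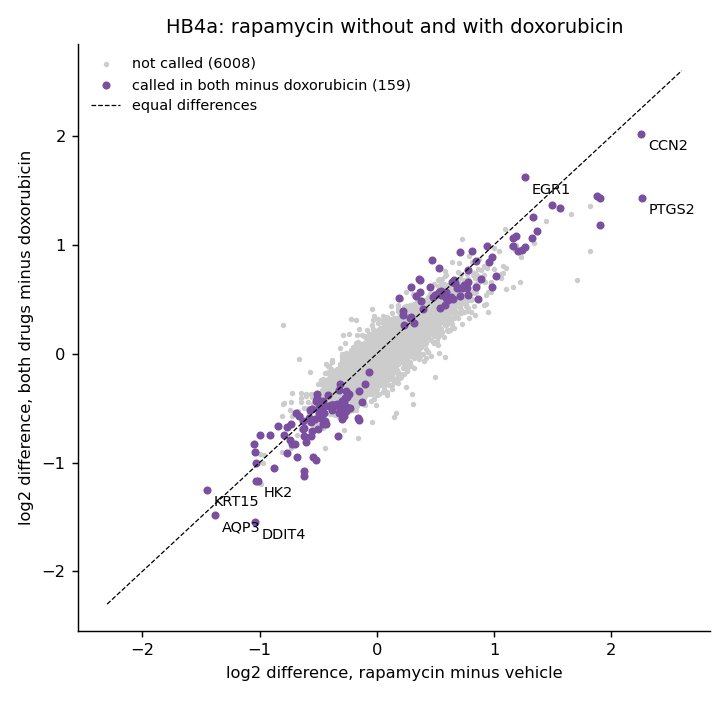
Each point is 1 of 6167 genes in HB4a, with the log2 difference of rapamycin minus vehicle on the horizontal axis and of both drugs minus doxorubicin on the vertical axis, and the dashed line marks equal differences. The 159 called genes, in colour, lie near that line in the upper right and lower left, with CCN2 at 2.25 and 2.02 and HK2 at -1.03 and -1.17.

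In C5.2 the response to adding rapamycin resembled that in HB4a in sign. Of the 159 genes, 154 had the same sign in C5.2 and 96 were called there in the same direction, none in the opposite, which is 60.4% of the 159 and 15.4% of the 622 genes called in C5.2 (8.93% of 6962 tested). EGR1 rose by 2.42 in C5.2 and HK2 fell by 1.35. The test of the difference between the lines called 1 gene of 6962 (0.0144%), CDH16, a kidney-type cadherin, which fell by 0.95 in HB4a, from 5.59 to 4.64, and differed by 0.23 in C5.2, where it was at 1.52 and 1.75, near the bottom of the scale. The difference was 1.17 ± 0.22 (adjusted p 0.0402), and 143 genes (2.05%) had an unadjusted p under 0.05. These too were fewer than chance would give with no difference in any gene, and the reason was not tested. CDH16 was the only gene of the 159 called in this test, and the count was 0 without doxorubicin array 2, 3, 4 or 6 or combined array 1, 3 or 4 of HB4a.

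SKBR3 differed more. There 116 of the 159 genes had the same sign, 51 were called in the same direction and 12 in the opposite one, which is 32.1% of the 159 and 4.51% of the 1131 genes called in SKBR3 (15.6% of 7270 tested). The test of the difference between SKBR3 and HB4a called 395 of 7270 genes (5.43%), 145 with a higher (1.99%) and 250 with a lower (3.44%) difference in SKBR3. After centring the arrays the split was 242 and 224, and after quantile normalization 236 and 234. Of the 159 genes, 48 were called in that test. HK2 was at -0.10 (adjusted p 0.681) in SKBR3 against -1.17 in HB4a, a difference of 1.07 (adjusted p 7.20e-04). KRT5 was at 0.06 against -1.17 (difference 1.23), AQP3 at 0.40 against -1.48 (difference 1.88), and PTGS2 at -0.16 against 1.43 (difference -1.59). KLF6 and ERRFI1, which rose in HB4a, were at 0.13 and 0.00 in SKBR3. DDIT4 fell in both lines: it fell by 0.71 in SKBR3 and fell by 1.55 in HB4a, and the difference between the lines was 0.84. TXNIP rose by 0.93 in SKBR3 and by 0.51 in HB4a, and the difference of 0.42 ± 0.20 did not pass (adjusted p 0.217).

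The largest differences between SKBR3 and HB4a in the higher direction were in CCNO, a cyclin family member, and AQP3, and in the lower direction in DEPDC1 and ANP32E. CCNO rose by 1.95 in SKBR3 and was at -0.01 in HB4a (difference 1.97 ± 0.23, adjusted p 4.19e-07). RIPOR3 differed between the lines by 1.81 ± 0.31, HILPDA, which coats lipid droplets, by 1.37 ± 0.18 and PFKFB3, an activator of phosphofructokinase, by 1.3 ± 0.23. HILPDA rose by 0.75 in SKBR3 and fell by 0.62 in HB4a. In the other direction, DEPDC1 and ANP32E differed by -2.59 each, ASPM by -2.53 ± 0.56, DLGAP5 by -2.39 ± 0.49 and TOP2A by -2.38 ± 0.56. TOP2A was at 5.12 with doxorubicin and 6.10 with both drugs in HB4a, and at 8.43 and 7.04 in SKBR3. Of the 32 mitosis genes, 29 fell in SKBR3 (where 10.2% of all genes did), with a median of -1.04, against 3 rises and a median of 0.32 in HB4a, and no member was called in C5.2 (median 0.09). The test of the difference between SKBR3 and HB4a called 30 of the 32, all lower in SKBR3, among them CCNB2 (-1.09 ± 0.11) and PTTG1 (-1.06 ± 0.12). Of 36 DNA replication genes, 28 fell in SKBR3, and 14 were called in that test, all lower. Glycolysis genes fell in 9 of 21 in HB4a, 14 in C5.2 (where 7.77% of all genes fell) and 10 in SKBR3, where 1 rose. The test called 3 of the 21 for SKBR3, all higher, and none for C5.2.

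**Figure D5:**
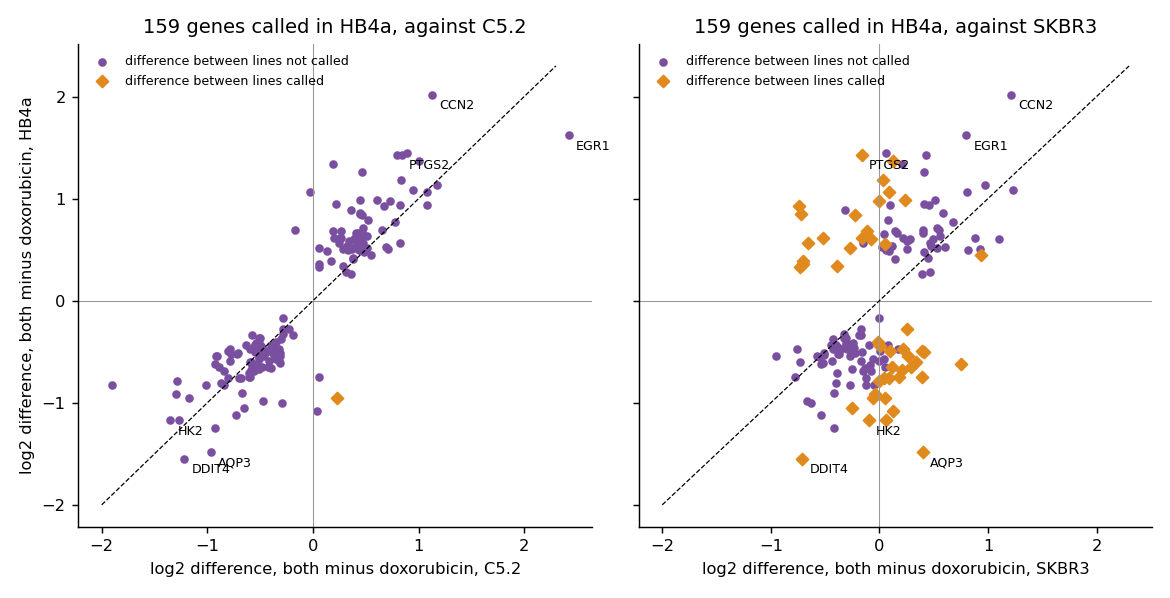
Each point is 1 of the 159 genes called in HB4a, with its log2 difference of both drugs minus doxorubicin in C5.2 (left) or SKBR3 (right) on the horizontal axis and in HB4a on the vertical axis. Diamonds mark genes whose difference between lines was called, 1 for C5.2 and 48 for SKBR3, and in SKBR3 many of these lie near 0 on the horizontal axis, such as HK2 at -0.10.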

How the data were processed

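RMA, named without a version in the submitters' processing notes, gave the deposited log2 values of each probe set; that they are log2 was judged from their range (-0.60 to 13.08). Of 54675 probe sets, 41091 had 1 symbol, 1801 had several and 11721 were unnamed here, and 62 were controls. Each of 19775 genes was represented by its probe set with the highest mean over 60 arrays, and tested where it passed log2 5 on at least 5 arrays of the fit. Array medians in HB4a were 1.58 to 1.71, and no 2 arrays were identical.

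limma 3.58.1 in R 4.3.3 was fitted to the 20 HB4a arrays, or to 40 with another line, with empirical Bayes and a trend, 2-sided, with p-values adjusted by Benjamini-Hochberg across every gene of the fit and called under 0.05, and was tested on simulated data. Plots used Python 3.11.15, pandas 2.3.3, numpy 2.4.6 and matplotlib 3.10.9. Doses were read as nM from the source names, and the group that the labels call DRC was read as vehicle because its source name says DMSO.

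The comparison, the 42 gene lists (963 genes, 860 with a value, 629 tested) and the markers were chosen with earlier results of these data known, so they are no independent evidence of direction. Named genes were the 10 largest rises and 10 largest falls among called genes whose arrays did not overlap, up to 2 called members of a list in each direction, MTOR, RPTOR, RICTOR, FKBP1A, TOP2A, CDKN1A, MDM2, GDF15, IRS2, EGFR, ERBB2, DDIT4, HK2 and TXNIP, the 5 largest called differences between lines in each direction, and other members of a list described. Promoters are those of up to 4 named list members with a searched motif.

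Alternatives covered the filter (none, log2 3, log2 7), averaging a gene's probe sets, array scaling (median centring, quantile), the variance model (no trend, array weights), the experiment number as a block, the arrays fitted (only the 10, all 60, without the 4 numbered 1 and rapamycin array 4, and, added after seeing the data, without the 4 numbered 1) and each array left out in turn.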

Additional observations from a re-analysis of the deposited data

Results flagged for a closer look

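In 116 groups of 5 arrays (the combined and doxorubicin groups of 58 named genes), 3 had an array that stood far from the others by Dixon's test, which by chance happens in about 1 of 20 groups. SGK1 was at 8.18 on doxorubicin array 2, against 7.80 to 7.87 on the other 4. MYC was at 9.41 on combined array 2, against 8.94 to 9.05. HSPA5 was at 9.37 on combined array 1, against 9.08 to 9.17.

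The effect of adding rapamycin to doxorubicin differed between C5.2 and HB4a for CDH16, by 1.17 (limma, adjusted p 0.0402). Between SKBR3 and HB4a it differed for 23 named genes in the same test. Genes whose difference was lower in SKBR3 were PTGS2 (-1.59), KLF6 (-1.24), RGCC (-1.16), ERRFI1 (-0.98), CCNB2 (-1.09) and PTTG1 (-1.06), and, among the largest of all genes, DEPDC1 (-2.59), ANP32E (-2.59), ASPM (-2.53), DLGAP5 (-2.39) and TOP2A (-2.38). Genes whose difference was higher in SKBR3 were NRG1 (0.85), SCNN1G (0.80), TRIM16 (0.80), ALOX15B (1.21), KRT5 (1.23), HK2 (1.07), AQP3 (1.88) and DDIT4 (0.84), and, among the largest of all genes, CCNO (1.97), RIPOR3 (1.81), HILPDA (1.37) and PFKFB3 (1.3). The adjusted p of these ran from 1.21e-07 (CCNB2) to 0.0498 (TRIM16). RIPOR3 was at 1.38 and 1.07 in HB4a, near the bottom of the scale.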

How the results depend on the processing

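The 159 genes called became 142 with no filter, 181 and 127 with filters at log2 3 and 7, 120 with the mean of all probe sets, 144 without trend, 144 with only the 10 arrays, 204 after centring (103 higher, 101 lower) and 214 after quantile normalization. They became 647 with array weights, 273 with all 60 arrays, 246 without the arrays numbered 1 and rapamycin array 4, 220 without the arrays numbered 1 alone (added after seeing the data), and 96 to 167 without 1 array. The named genes called, 51 of 58, became 29 with the filter at log2 7 (34 tested) and 32 with the mean of probe sets (36 tested), where fewer were tested, and 39 to 48 without 1 array. Of the 51, all kept their sign and 32 their call in every setting in which they were tested. With only the 10 arrays 53 of the 58 were tested. RGCC, SCNN1G, STC2, FASN and ALOX15B were not, because they passed the filter only with vehicle or rapamycin-alone arrays. Of those not called, MDM2 turned to 0.01 after centring and 0.02 after quantile normalization, and without 1 array MDM2 ranged from -0.26 to 0.16, GDF15 from -0.14 to 0.03 and FKBP1A from -0.19 to 0.06.

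With the experiment number as a block, 973 genes were called, 583 with the block and only the 10 arrays, and all 159 were among the 973. The numbers were not taken as pairs: residuals of equal-numbered arrays correlated at 0.92 for number 1, -0.36 for 2, 0.15 for 3, 0.65 for 4 and 0.44 for 6. Combined array 3 correlated best with doxorubicin array 2 (0.68) and combined array 2 with doxorubicin array 3 (0.55), and no numbers were crossed. The block called 1 gene for the interaction, 24 for C5.2 against HB4a and 2145 for SKBR3 against HB4a.

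For C5.2 against HB4a, 1 gene became 3 with no filter, 3 with the filter at 3, 0 with the filter at 7 and after centring, 9 with weights and 0 to 1 without 1 array. For SKBR3 against HB4a, 395 became 206 with the filter at 7, 1187 with weights and 291 to 471 without 1 array. The interaction called 0 genes in every other setting run. The cause of these shifts was not tested beyond the fewer genes tested under the stricter filters.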
